A study of Mus musculus with 24 samples.

Results

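The 8 probes described here carry the names of mouse miRNAs whose standing as miRNAs is doubtful: mmu-miR-696, mmu-miR-705, mmu-miR-706, mmu-miR-715, mmu-miR-720, mmu-miR-761, mmu-miR-805 and mmu-miR-882. They were taken by exact mature name from the 558 mouse miRNA probes of a microarray, which holds 593 probes with its 35 spike-in controls. All 8 were found on each of the 24 arrays and all were among the 365 probes tested. They were selected on their names and on measured values, with earlier results of the same arrays known. The values were log2 intensity and detection p-value across the 12 groups, with attention to rigid against compliant microenvironments. That contrast is therefore given below as a description without a test. The tests between lines and of TGF-beta below rest on the same values, so their p-values are not independent of the choice.

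The arrays compared 4T1, 4TO7 and 67NR, sister lines derived from 1 mouse mammary tumour, which the labels call highly metastatic, systemically invasive and nonmetastatic in that order. Cells of each line were propagated for 6 days in 3-dimensional organotypic culture, in a rigid or a compliant microenvironment, and received TGF-beta itself or a drug against its type I receptor, the inhibitor below, whose groups the labels call basal. The 12 groups were thus rigid with TGF-beta, rigid with inhibitor, compliant with TGF-beta and compliant with inhibitor in each of the 3 lines, with 2 arrays a group (set 1 and set 2). No group was left without both agents, so what TGF-beta adds and what the inhibitor takes away cannot be told apart. The labels do not say whether the sets were separate cultures, so p-values measure only the spread between these arrays.

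A miRNA is a short RNA cut by Drosha and Dicer from a hairpin precursor, and it finds its target mRNAs mainly through the seed, bases 2 to 8 of its 5′ end. A name given after an early sequencing screen can be withdrawn when the RNA turns out to be a piece of another abundant RNA. MiR-720 corresponds to a fragment of a threonine tRNA, and the sequence of miR-805 lies in the mitochondrial genome. The sequence of miR-706 matches the rodent B1 repeat, a short interspersed element. For 3 others a target has been described in mouse tissue: the metabolic coactivator PGC-1alpha for miR-696 in muscle, the homeobox factor HOXA10 for miR-705 in bone marrow stromal cells, and mitochondrial fission factor for miR-761 in heart. No role is given here for miR-715 or miR-882.

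RefSeq (build GRCm38.p6) held a mature sequence for 4 of the 8, shown here 5′ to 3′ because their composition differs so much. Capitals mark the seed. MiR-696, miR-715, miR-720 and miR-805 are named only.
miR-705: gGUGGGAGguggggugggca
miR-706: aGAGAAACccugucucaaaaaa
miR-761: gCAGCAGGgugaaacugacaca
miR-882: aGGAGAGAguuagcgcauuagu
No 2 of these seeds are the same. The seed of miR-761 is that of miR-214-3p, the next line, and differs from it in the bases that follow.
miR-214-3p: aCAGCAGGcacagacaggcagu
Of the 1738 mature mouse sequences in the same table, 3 others carry the seed of miR-705 (miR-6922-5p, miR-6993-5p and miR-7008-5p), 1 other that of miR-882 (miR-3473a) and none that of miR-706.

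MiR-705 (chr6:85336341-85336360, minus strand) consists of G at 14 of its 20 bases, or 70%, a share higher than in 99.9% of the mature sequences. MiR-706 (chr6:120034290-120034311, minus strand) has 36.4% G and C and ends in a run of A. Bases 2 to 16 of miR-706, GAGAAACCCTGTCTC as DNA, were searched on both strands of 32851 RefSeq promoter windows of 300.0 bases around gene starts. They occurred in 30 windows, or 0.0913%. The whole sequence of 22 bases occurred in 2 windows, or 0.0061%, and 4 of the 1674 different mature sequences occurred in more. Of the 1651 different 15-base stretches at positions 2 to 16 of mature mouse sequences, 2 occurred in more windows and 91.8% in none, among them those of miR-705, miR-761 and miR-882. A match of these letters is a description of the sequence, not a site.

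The hairpins of 3 members are shown because they differ in how well they fold. Capitals mark the mature sequence.
miR-705: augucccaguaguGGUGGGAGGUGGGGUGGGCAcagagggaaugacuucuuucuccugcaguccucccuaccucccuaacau
miR-761: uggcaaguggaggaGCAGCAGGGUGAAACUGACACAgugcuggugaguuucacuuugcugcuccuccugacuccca
miR-882: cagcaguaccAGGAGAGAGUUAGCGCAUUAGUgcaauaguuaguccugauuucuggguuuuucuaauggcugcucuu
Folding with RNAfold gave a minimum free energy of -40.8 kcal/mol for the hairpin of miR-705, -47.0 for that of miR-761 and -21.5 for that of miR-882. Per base, the hairpin of miR-761 was more stable than 96.4% and that of miR-705 more stable than 83.3% of the 1005 mouse hairpins in the table. That of miR-882 was more stable than 7.66% of them. In these folds 20 of 22 mature bases were paired in miR-761, 17 of 20 in miR-705 and 16 of 22 in miR-882.

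By the same annotation, Mir705 (chr6:85336292-85336373) lies inside the span of Rab11fip5, Mir706 (chr6:120034228-120034311) inside that of Wnk1 and Mir761 (chr4:109017655-109017730) inside that of Nrd1, all protein-coding genes. Exons and introns were not examined. Mir882 (chr12:109682197-109682273) overlaps no annotated gene, and the nearest gene of any kind is Gm22981, at a distance of 111 bases. It has 55 miRNA genes within 100 kb, the nearest being Mir379 at a distance of 26787 bases. These miRNA genes belong to the imprinted Dlk1-Dio3 region, a large maternally expressed miRNA cluster.

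The deposited value of a probe is a relative intensity, the sample's signal over that of a synthetic reference mixed into each hybridisation, and levels below are log2 of it after each array was scaled to a common median. A level can be set against that of the same probe on another array but not against another probe's. Between 313 and 357 of the 558 miRNA probes had a detection p under 0.05 on an array, the array medians before scaling were 8.30 to 8.86, and replicate arrays had r = 0.995 to 0.999. The arrays lay on 5 slides of 4 to 6, and some comparisons below are confounded with slide in part. Of the epithelial markers, 7 of 7 were detected on some array. MiR-200b, miR-200c and miR-429 were detected on 8 of 8 arrays of 4T1 and on none of the other lines. MiR-141 and miR-203 were detected on 8 of 8 arrays of each line. For miR-200a it was 8 arrays of 4T1, 6 of 4TO7 and 1 of 67NR, and for miR-205 2 of 4TO7 alone. Of the 5 mesenchymal markers 3 were detected on all arrays, miR-143 on 8 of 8 arrays of 67NR alone, and miR-199a-3p on no array. Both endothelial and 4 of 5 blood markers were detected on no array, while miR-451 of the blood list and miR-122 of liver were detected on all 24. Of the neural markers 2 of 3 were detected on some array, miR-9 on all 24. Of the muscle markers 1 of 3 was detected, miR-206 on 8 of 8 arrays of 67NR alone.

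Of the 8 members, 7 were detected on all 24 arrays. MiR-882 was detected on 16, with detection p-values of 0.0083 to 0.0844 over the arrays. It passed on 4 of 8 arrays of 4T1, 4 of 8 of 4TO7 and 8 of 8 of 67NR, and on neither array of compliant 4T1 with TGF-beta. Its levels are therefore close to background throughout. MiR-805 came next, with a highest detection p of 0.000615. The fail code, which marks a weak reference spot, was set for no member on any array. The standard deviation between arrays of a group was 0.06 for miR-696, 0.08 for miR-706, miR-805 and miR-882, 0.09 for miR-761, 0.13 for miR-705, 0.16 for miR-720 and 0.19 for miR-715. The median over all tested probes was 0.08.

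**Figure D1:**
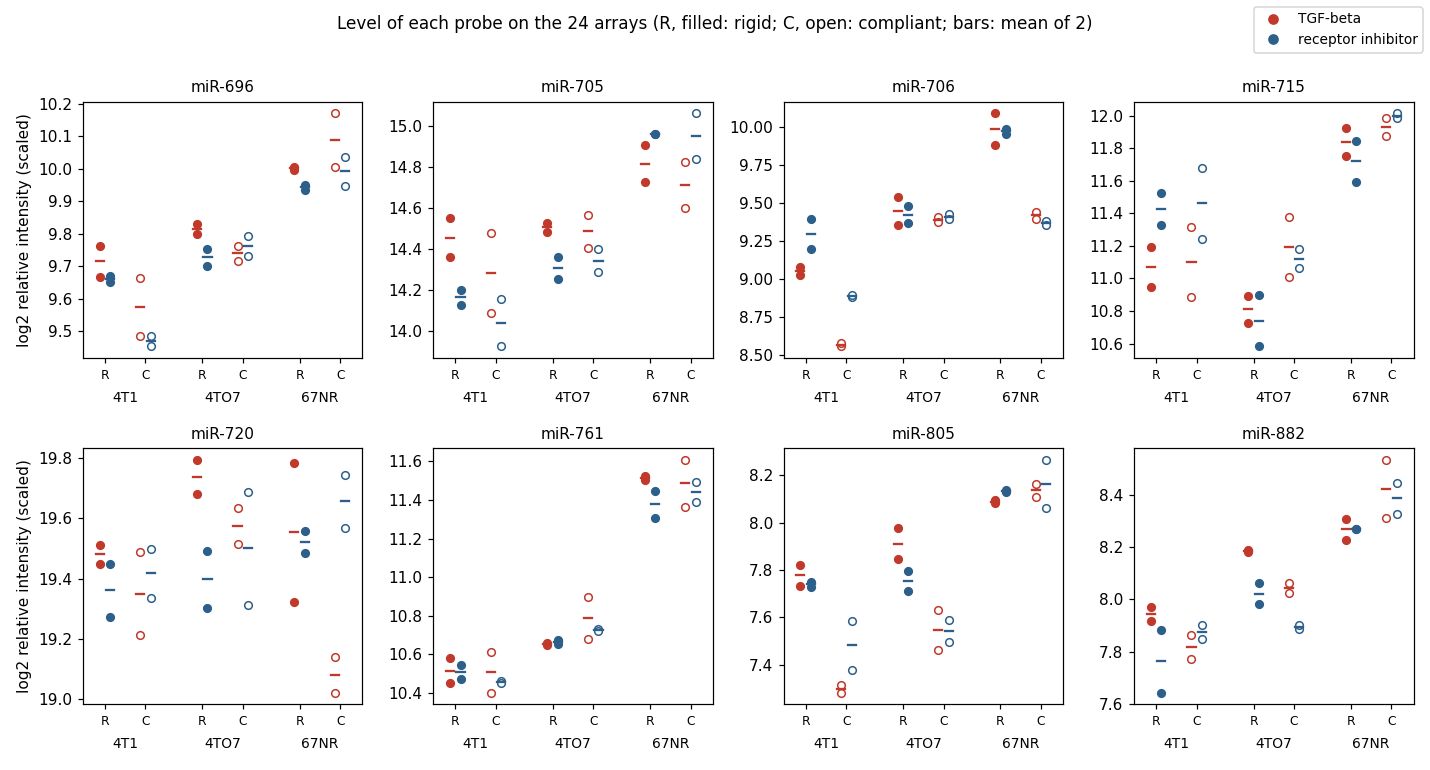
Level of each probe on the 24 arrays, as log2 relative intensity after scaling, on an axis of its own per panel. Each point is 1 array, filled for rigid (R) and open for compliant (C), red for TGF-beta and blue for inhibitor, and each bar is the mean of 2 arrays. The rigid 67NR arrays of miR-706 lie at 9.88 to 10.09, against 9.36 to 9.44 for compliant 67NR, and miR-720 spans 19.02 to 19.80 with no line apart.

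Among the members, miR-706 differed most between rigid and compliant cultures. In 67NR it stood at 9.88 and 10.09 on the rigid arrays with TGF-beta and at 9.96 and 9.99 on those with inhibitor. The compliant arrays of 67NR gave 9.44 and 9.40 with TGF-beta and 9.38 and 9.36 with inhibitor. All 4 rigid arrays were thus above all 4 compliant ones, by 0.44 at the nearest, and the treatments lay together within each microenvironment. In 4T1 the rigid arrays gave 9.02 and 9.08 with TGF-beta and 9.40 and 9.20 with inhibitor, against 8.56 and 8.58 with TGF-beta and 8.88 and 8.89 with inhibitor on compliant arrays. Again the microenvironments did not overlap. In 4TO7 the range was 9.35 to 9.54 on rigid and 9.37 to 9.43 on compliant arrays, and the groups overlapped. The rigid minus compliant difference was 0.58 ± 0.06 (SE) in 67NR, 0.45 ± 0.06 in 4T1 and 0.04 ± 0.06 in 4TO7, with 4 arrays a side. Its size depended on scaling. In the same order it was 0.45, 0.44 and 0.08 after quantile normalization, and 0.69, 0.33 and 0.02 with no scaling between arrays.

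MiR-805, the mitochondrial sequence, was higher on rigid arrays in 4T1 and 4TO7. In 4T1 it stood at 7.73 and 7.82 on rigid arrays with TGF-beta and 7.73 and 7.75 with inhibitor, against 7.32 and 7.28 with TGF-beta and 7.38 and 7.58 with inhibitor on compliant ones. In 4TO7 the rigid arrays gave 7.85 and 7.98 with TGF-beta and 7.71 and 7.80 with inhibitor, and the compliant arrays 7.46 and 7.63 with TGF-beta and 7.49 and 7.59 with inhibitor. In both lines every rigid array was above every compliant one. The 67NR arrays were all higher than these, at 8.08 to 8.14 rigid and 8.06 to 8.27 compliant, and overlapped. The differences were 0.37 ± 0.06 in 4T1, 0.29 ± 0.06 in 4TO7 and -0.04 ± 0.06 in 67NR.

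MiR-715 was lower on rigid arrays in 4TO7. The rigid arrays there gave 10.90 and 10.73 with TGF-beta and 10.90 and 10.58 with inhibitor, and the compliant ones 11.38 and 11.01 with TGF-beta and 11.18 and 11.06 with inhibitor. The gap between the groups was 0.11, smaller than the spread within a group. The difference was -0.38 ± 0.11 in 4TO7, -0.19 ± 0.11 in 67NR and -0.03 ± 0.11 in 4T1, and the groups overlapped in the last 2.

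Non-overlap of the 4 rigid and 4 compliant arrays was thus seen for 2 of 8 members in 4T1 (miR-706 and miR-805, both higher when rigid), where 2.74% of the 365 tested probes showed it in either direction, 2.19% higher and 0.548% lower when rigid. It was seen for 3 of 8 in 4TO7, against 5.75% of tested probes (1.37% higher and 4.38% lower): miR-805 was higher, and miR-715 and miR-761 were lower when rigid. In 67NR it was seen for 2 of 8, against 9.59% (6.3% higher and 3.29% lower): miR-706 was higher and miR-882 lower when rigid. Since the members were proposed with this contrast in view, nothing is read from these shares. The separations of miR-761 in 4TO7 and miR-882 in 67NR were 0.009 and 0.007 wide, far below their spread between replicate arrays, and both were lost under quantile normalization and under scaling to the median of all tested probes. With no scaling between arrays, miR-715 in 4TO7 and miR-706 in 67NR were the members that stayed apart. Other scalings also added separations, of miR-696 in 4T1 (given below) and, under the authors' value table, of miR-715 in 67NR, lower when rigid. The median rigid minus compliant difference of all tested probes was 0.01 in 4T1, -0.02 in 4TO7 and 0.01 in 67NR.

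The remaining members differed less by microenvironment. MiR-696 was 0.17 ± 0.05 higher on rigid arrays in 4T1, with differences of 0.02 in 4TO7 and -0.07 in 67NR. Its 4T1 groups overlapped narrowly, at 9.65 to 9.76 rigid and 9.45 to 9.66 compliant. They stood apart, higher when rigid, under quantile normalization, scaling to all tested probes and the authors' value table. MiR-705, miR-720, miR-761 and miR-882 had differences between -0.14 and 0.17 in the 3 lines. No slide held rigid and compliant 67NR arrays of the same treatment. Slides 2 and 3 held 3 such pairs in 4T1, 2 of which share a rigid array, and slide 4 held 1 in 4TO7. Within these slides miR-706 was higher on the rigid array by 0.32, 0.47 and 0.45 in 4T1 and by 0.13 in 4TO7. MiR-805 was higher by 0.37, 0.42 and 0.45 in 4T1 and by 0.52 in 4TO7. MiR-715 differed by -0.65 in the pair of 4TO7 and by -0.35, -0.12 and 0.31 in those of 4T1.

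**Figure D2:**
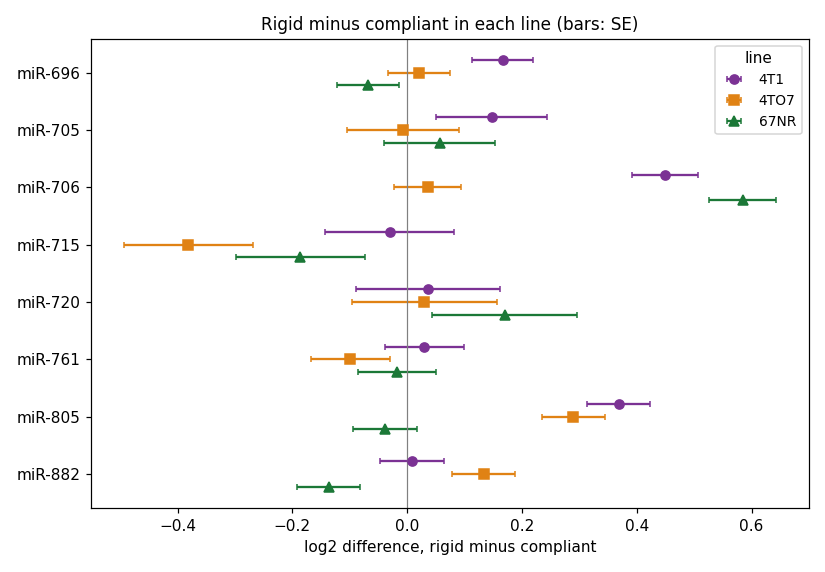
Difference in log2 relative intensity between rigid and compliant cultures for each probe and line, with its SE from the 12-group fit. MiR-706 stands at 0.58 in 67NR and 0.45 in 4T1 and near 0 in 4TO7, miR-805 at 0.37 in 4T1 and 0.29 in 4TO7, and miR-715 at -0.38 in 4TO7.

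The response to TGF-beta, relative to the receptor inhibitor, was tested in each line with limma's moderated test across all 365 probes. In 4T1, 3 of 8 members passed at an adjusted p under 0.05, where 34% of all tested probes did (18.6% higher and 15.3% lower). MiR-706 fell and miR-705 rose. The other one was miR-715, whose lower level with TGF-beta in 4T1 was already known when the members were chosen, so it is given below as a description and nothing is read from it or from the count. In 4TO7 and in 67NR 0 of 8 passed, against 19.7% and 10.7% of tested probes. In each, 1 member had an unadjusted p under 0.05 (miR-882 in 4TO7 and miR-720 in 67NR). So had 113 of the 365 probes in 4TO7 and 111 in 67NR. Averaged over the lines, 0 of 8 passed, against 40%, and the unadjusted p was under 0.05 for miR-706 (0.021) and miR-882 (0.022). It was under 0.05 for 178 of the 365 probes, so nothing is read from these members.

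In 4T1, miR-706 fell by 0.28 ± 0.06 (adjusted p = 0.000696, n = 4 arrays a side, limma), to a mean of 8.81 with TGF-beta against 9.09 with inhibitor. It was lower with TGF-beta by 0.32 in compliant and by 0.25 in rigid cultures, and within each microenvironment both TGF-beta arrays were below both inhibitor arrays. The array values are those given above. The difference was 0.001 in 4TO7 (95% interval -0.12 to 0.13) and 0.03 in 67NR (-0.09 to 0.16). These intervals use the 12 residual degrees of freedom, fewer than limma's test does, and are somewhat wider than that test implies. The F test of the TGF-beta effect between the 3 lines, which 16.2% of tested probes passed, had an adjusted p of 0.0153 for miR-706. Without the array of rigid 4T1 with inhibitor, set 1, this adjusted p became 0.0643 and the fall in 4T1 was 0.23. The F test also lost its call with slide as a fixed block (adjusted p = 0.0981) and with no scaling between arrays (0.151).

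MiR-715 stood at a difference of -0.36 ± 0.11 in 4T1. The rigid arrays gave 11.20 and 10.95 with TGF-beta and 11.52 and 11.33 with inhibitor, and the compliant arrays 11.32 and 10.88 with TGF-beta and 11.68 and 11.24 with inhibitor. In each microenvironment and set the TGF-beta array was the lower one, but the groups overlapped over the line. The difference was -0.25 without set 1 of compliant 4T1 with inhibitor and -0.25 without set 2 of compliant 4T1 with TGF-beta.

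MiR-705 rose by 0.27 ± 0.10 in 4T1 (adjusted p = 0.0383, limma). Its rigid arrays gave 14.55 and 14.36 with TGF-beta and 14.13 and 14.20 with inhibitor, and its compliant arrays 14.48 and 14.09 with TGF-beta and 13.93 and 14.16 with inhibitor. The set 2 array of compliant 4T1 with TGF-beta lay within the range of the inhibitor arrays. In 4TO7 the difference was 0.17 ± 0.10 (adjusted p = 0.241), with 4 TGF-beta arrays at 14.40 to 14.57 just above 4 inhibitor arrays at 14.26 to 14.40, and in 67NR it was -0.19 ± 0.10 (adjusted p = 0.182). The F test between lines had an adjusted p of 0.0486 for miR-705 and passed in 7 of the 24 fits that each left out 1 array. It also lost its call with slide as a fixed block (adjusted p = 0.31), with the set as a block (0.0543) and with no detection filter (0.0721). Quantile normalization gives miR-705 the same value on every array, as it does miR-720 and miR-1224, so no difference of either member can be seen under it. The rise in 4T1 lost its call without set 1 of compliant 4T1 with TGF-beta (0.17, adjusted p = 0.216), and without any of 4 other 4T1 arrays: set 1 of compliant with inhibitor, either set of rigid with inhibitor, and set 1 of rigid with TGF-beta (0.21 to 0.28, adjusted p = 0.0638 to 0.148). With no detection filter its adjusted p was 0.0536.

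No slide held both treatments of a microenvironment in 4T1, so none of these 3 differences can be had within a slide. With slide as a fixed block the fall of miR-706 in 4T1 kept its call, and the rise of miR-705 lost its call (0.18, adjusted p = 0.426). MiR-715 stood at -0.42 with that block. With no scaling between arrays neither miR-706 (-0.17, adjusted p = 0.291) nor miR-705 (0.38, adjusted p = 0.16) passed in 4T1, and miR-715 stood at -0.25.

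MiR-720, the tRNA fragment, stood at 19.14 and 19.02 with TGF-beta and at 19.74 and 19.57 with inhibitor in compliant 67NR, with both TGF-beta arrays the lower. Its rigid 67NR arrays gave 19.32 and 19.78 with TGF-beta and 19.49 and 19.56 with inhibitor, and overlapped. Over both microenvironments of 67NR the difference was -0.27 ± 0.13 (adjusted p = 0.148) and did not pass. The TGF-beta effect on miR-720 was 0.35 ± 0.15 more positive in rigid than in compliant cultures over the 3 lines and did not pass (unadjusted p = 0.0244, adjusted p = 0.832). Of the 365 probes 0 passed this last comparison, or 0%, in limma's test, and 19 had an unadjusted p under 0.05. MiR-882 in 4TO7 stood just outside the threshold, at 0.16 ± 0.06 (adjusted p = 0.050), with 4 of its 8 arrays there below detection, and it passed under 5 of the 8 other settings tried.

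**Figure D3:**
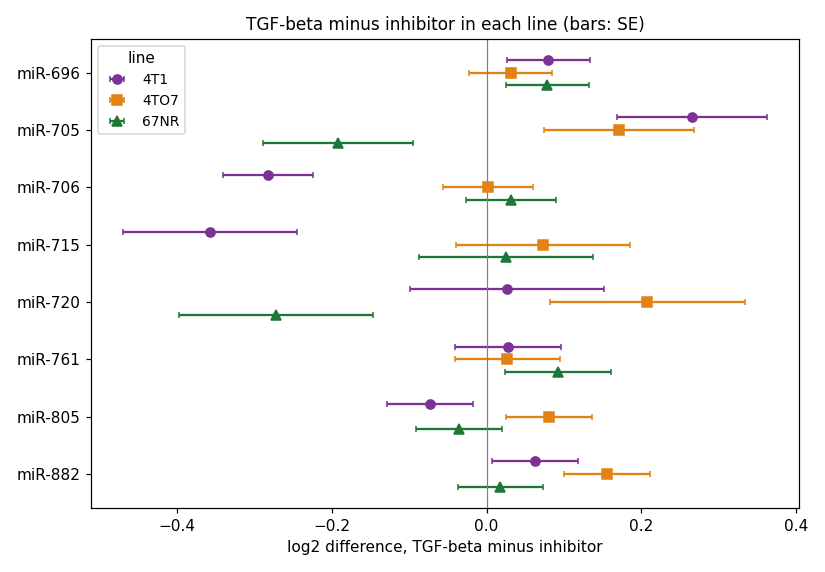
Difference in log2 relative intensity between TGF-beta and receptor inhibitor for each probe and line, with its SE. MiR-706 (-0.28) and miR-715 (-0.36) are lower and miR-705 (0.27) higher in 4T1, and miR-705 stands at -0.19 in 67NR.

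Between the lines 7 of the 8 members moved one way. In 4T1 against 67NR 7 of 8 were lower, where 57.5% of tested probes were lower, and in 4TO7 against 67NR the same 7 were lower, where 50.1% were. MiR-720 was the exception, at -0.05 ± 0.09 in 4T1 (adjusted p = 0.589) and 0.10 ± 0.09 in 4TO7 (adjusted p = 0.297). The median difference over the 8 members was -0.58 in 4T1 and -0.37 in 4TO7, against -0.18 and -0.09 over all tested probes. Each comparison used 8 arrays a line, averaged over microenvironment and treatment, and both share the 67NR arrays. The members were chosen with values of every group in view, so nothing is read from these shares or from those between lines below.

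Among the members, miR-761 had the widest difference between 4T1 and 67NR, and in 4TO7 against 67NR it came after miR-715. It ranged over 10.40, 10.47 and 10.61 (lowest, median, highest) in 4T1 and over 10.65, 10.68 and 10.89 in 4TO7, against 11.31, 11.47 and 11.61 in 67NR. No array of 4T1 or 4TO7 came within 0.4 of a 67NR array. It was lower by 0.96 ± 0.05 in 4T1 (adjusted p = 2.25e-14, limma) and by 0.75 ± 0.05 in 4TO7 (adjusted p = 3.23e-12). MiR-214, which has the same seed, was detected on all arrays of the 3 lines.

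MiR-715 ranged over 10.88, 11.28 and 11.68 in 4T1 and 10.58, 10.95 and 11.38 in 4TO7, against 11.59, 11.90 and 12.01 in 67NR. Its arrays of 4TO7 lay wholly below those of 67NR, while 1 array of 4T1, compliant with inhibitor, reached into the 67NR range. The differences from 67NR were -0.61 ± 0.08 in 4T1 and -0.90 ± 0.08 in 4TO7 (adjusted p = 2.71e-07 and 7.02e-10, limma). MiR-706 was -0.74 ± 0.04 in 4T1 and -0.27 ± 0.04 in 4TO7 relative to 67NR, but its compliant 67NR arrays, at 9.36 to 9.44, lay among the 4TO7 arrays, at 9.35 to 9.54. In order of group means, both rigid 67NR groups of miR-706 came first and differed from the next by more than the spread between arrays. The 4 groups of 4TO7, the 2 compliant groups of 67NR and rigid 4T1 with inhibitor followed with no neighbours that far apart, and the other 3 groups of 4T1 were lowest, each apart from the next.

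MiR-705 was -0.62 ± 0.07 in 4T1 and -0.45 ± 0.07 in 4TO7 relative to 67NR, miR-805 -0.56 ± 0.04 and -0.44 ± 0.04, miR-882 -0.49 ± 0.04 and -0.30 ± 0.04, and miR-696 -0.40 ± 0.04 and -0.25 ± 0.04. The adjusted p of these 8 differences was at most 4.61e-06 in limma's test. For 5 members, miR-696, miR-705, miR-761, miR-805 and miR-882, all 8 arrays of 67NR were above all 16 arrays of the other lines, which was so for 17.5% of tested probes. The margin was 0.03 for miR-705 and 0.04 for miR-882, which was below detection on 8 of the other 16 arrays.

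In 4T1 against 4TO7, 6 of 8 members were lower, against 52.1% of tested probes, and 1 was higher, against 19.2%. MiR-715 was the one that was higher, by 0.30 ± 0.08 (adjusted p = 0.00241, limma). MiR-706 was lower by 0.47 ± 0.04 (adjusted p = 1.59e-09), and miR-761, miR-882, miR-705, miR-696 and miR-805 by 0.11 to 0.21. Scaling bears on this pair of lines. Array medians before scaling averaged 8.65 in 4T1, 8.43 in 4TO7 and 8.64 in 67NR, and with no scaling 124 of all tested probes were higher and 17 lower in 4T1, in place of 70 higher and 190 lower. Without scaling, the lower levels of 5 members in 4T1 turned to small positive differences that did not pass, and miR-706 did not turn. With slide as a fixed block, the differences between 4T1 and 4TO7 lost their call for miR-696 (adjusted p = 0.0511), miR-715 (0.0614), miR-705 (0.111) and miR-805 (0.148). Quantile normalization ended the calls of miR-696 (-0.074, adjusted p = 0.0722) and miR-761 (-0.092, 0.0934), and leaves miR-705 no difference. The authors' value table ended those of miR-705 (-0.11, adjusted p = 0.166) and miR-805 (-0.046, 0.266). That of miR-705 kept its call in 16 of the 24 fits that each left out 1 array.

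**Figure D4:**
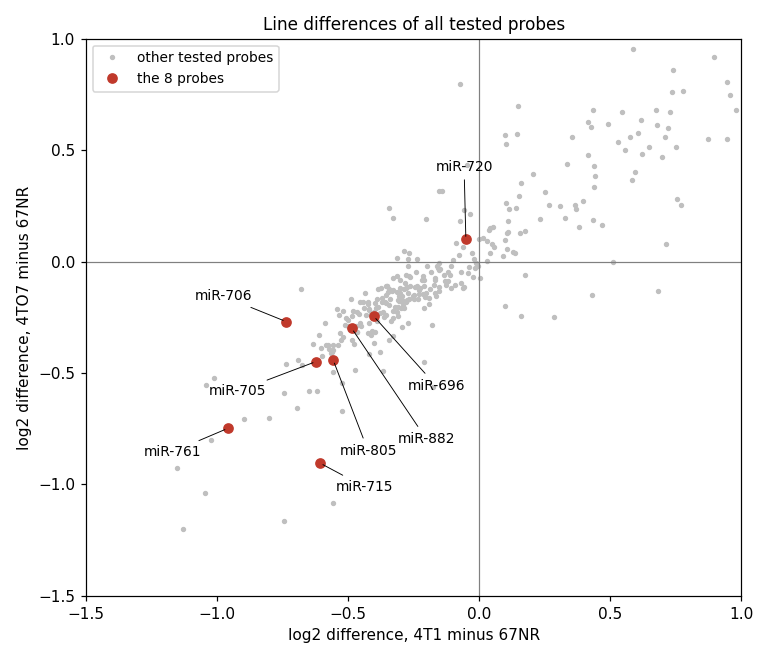
Difference in log2 relative intensity of each tested probe in 4TO7 minus 67NR (vertical) against 4T1 minus 67NR (horizontal), each averaged over 8 arrays a line, with the 8 probes in red and the other 357 in grey. Axes run from -1.5 to 1, and 46 probes fall outside. Of the 8 probes, 7 lie below 0 on both axes, with miR-761 at -0.96 and -0.75, and miR-720 lies near 0 on both.

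Other probes were taken for comparison by their numbers, those named miR-680 to miR-721 that are not members. That range does not reach miR-761, miR-805 and miR-882, and it was set with earlier results of these arrays known. Of 39 on the array 25 were tested. In 4T1 against 67NR 22 of the 25 were lower and 0 higher, where 57.5% of the 365 tested probes were lower and 119 probes higher. The median was -0.36 and the largest fall was in miR-711 (-0.69 ± 0.06). In 4TO7 against 67NR 20 were lower and 0 higher, where 50.1% of tested probes were lower and 118 probes higher. The median was -0.19. The largest fall was in miR-712*, from a precursor that mouse work places in the spacer of the ribosomal RNA transcript (-1.08 ± 0.09). In 4T1 against 4TO7 16 were lower, against 52.1% of tested probes. MiR-712* alone was higher (0.53 ± 0.09), the direction in which miR-715 moved, against 19.2% of tested probes. With TGF-beta in 4T1, 5 of the 25 were higher, most of all miR-711 (0.22 ± 0.08), and 0 lower. Of all tested probes 18.6% were higher and 15.3% lower there. Rigid and compliant arrays of this list stood apart for 0 of 25 in 4T1, 2 in 4TO7 and 2 in 67NR. The shares over all tested probes were 2.74%, 5.75% and 9.59%, and nothing is read from these counts.

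The probes most like each member were found by Pearson's r over the 24 arrays after each line's mean had been taken off, as a description, since all probes share the arrays and their scaling. MiR-705 was closest to miR-1224 (r = 0.93), miR-709 (0.81) and miR-711 (0.80). MiR-706 was closest to miR-466f-3p (0.80), miR-466g (0.74) and miR-431 (0.72). MiR-805 was closest to miR-16 (0.78), miR-195 (0.74) and miR-28 (0.70), of which miR-16 and miR-195 share a seed. With line means kept, these r were 0.19, 0.28 and 0.63. The rigid minus compliant difference of miR-16 was 0.53 in 4T1, 0.30 in 4TO7 and -0.08 in 67NR. For miR-466f-3p, the closest to miR-706, it was 0.36, 0.01 and 0.46 in that order. MiR-882 was closest to miR-382 (0.80), miR-342-5p (0.77) and miR-743b-3p (0.70).

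MiR-696 was closest to miR-337-5p (r = 0.74), miR-483 (0.72) and miR-764-3p (0.68), and miR-761 to miR-693-5p (0.71), miR-10b (0.69) and miR-323-5p (0.69). MiR-715 was closest to miR-92a (0.71), miR-467e (0.65) and miR-193* (0.64). The r with miR-92a was -0.77 when line means were kept, so the 2 probes went opposite ways between lines and the same way within them. MiR-720 had the loosest neighbours, miR-690 (0.64), miR-1224 (0.58) and miR-705 (0.52). Between members, r ran from -0.34 for miR-715 and miR-805 to 0.56 for miR-715 and miR-761.

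The 2 sets differed for some members. Set 1 was above set 2 in 10 of 12 groups for miR-715, by 0.19 on average, in 11 of 12 for miR-761, by 0.08, and in 9 of 12 for miR-882, by 0.08. For miR-805 set 1 was the higher in 3 of 12 groups. Each group held 1 array of each set.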

How the data were processed

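Total RNA was profiled on 24 2-dye miRNA arrays. Per the file headers, the deposited intensity is a background-subtracted relative intensity, sample (DY649) over synthetic reference (DY547), with a percent error, a detection p-value and a fail code. For 338 probes the authors also deposited a table of log2 values, which are log2 of the deposited intensity plus 1 constant per array (-0.287 to 0.236, largest deviation 5.87e-06), by a rule not given in the sources used here.

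The members and lists were chosen with earlier results of these data known. The named genes were the 8 members, the 3 most similar probes of each and the extremes of the numbered list.

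Log2 intensities were scaled to the median of 282 probes detected on all arrays. Quantile normalization, used earlier, ties miR-720 and miR-705 across arrays. Probes with a detection p under 0.05 on both arrays of a group, and a fail code on fewer than 12 arrays, were kept (365). Limma 3.58.1 in R 4.3.3 fitted 12 group means (12 residual degrees of freedom) with eBayes (trend on). Adjusted p-values are two-sided, by the Benjamini-Hochberg method over all tested probes, and the fit was tested on simulated data. Sequences came from RefSeq (GRCm38.p6), and folding was by RNAfold 2.7.2. The alternatives were quantile, all-probe and no scaling, the authors' table, no filter, slide or set as a block, and each array left out. The number of arrays limits the precision.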

Additional observations from a re-analysis of the deposited data

Results flagged for a closer look

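The effect of TGF-beta against inhibitor differed between lines for 2 of the 8 probes in the F test of the difference itself. For miR-706 the adjusted p was 0.0153, with -0.28 ± 0.06 in 4T1, 0.001 ± 0.06 in 4TO7 and 0.03 ± 0.06 in 67NR. Its adjusted p was 0.0981 with slide as a fixed block, 0.151 with no scaling between arrays and 0.0643 without set 1 of rigid 4T1 with inhibitor. For miR-705 it was 0.0486, with 0.27 ± 0.10 in 4T1, 0.17 ± 0.10 in 4TO7 and -0.19 ± 0.10 in 67NR. Its adjusted p was 0.31 with slide as a fixed block, 0.0543 with the set as a block and 0.0721 with no detection filter, and it passed in 7 of the 24 fits that each left out 1 array. Quantile normalization leaves miR-705 no difference. Of all tested probes 16.2% passed the same test.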

How the results depend on the processing

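The lower levels of 7 members in 4T1 and in 4TO7 than in 67NR passed under all 8 other settings and with any array left out, except that quantile normalization gives miR-705 no difference. With no scaling between arrays, 4T1 minus 4TO7 turned to 0.062 for miR-696, 0.045 for miR-705, 0.0081 for miR-761, 0.105 for miR-805 and 0.033 for miR-882. Without scaling the probes called numbered 141 (260 with scaling) in 4T1 against 4TO7, and for TGF-beta 29 (124) in 4T1, 41 (72) in 4TO7 and 57 (146) over all lines. Those with rigid and compliant arrays apart numbered 6 (10) in 4T1, 4 (21) in 4TO7 and 5 (35) in 67NR. Scaling to all tested probes gave 16 in 4T1, and quantile normalization 13 in 4TO7. The cause was not tested. In 4T1 the TGF-beta calls split into 68 higher and 56 lower, 46 and 70 after quantile normalization, 57 and 67 scaled to all tested probes and 21 and 8 unscaled. With slide as a fixed block 52 probes passed for TGF-beta in 4T1, and 26 (59) in the F test between lines. The authors' value table gave 61 (39) for TGF-beta in 67NR.

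The set 1 minus set 2 differences of all tested probes were correlated between each 2 groups. Over all lines r was -0.36 to 0.51 (median 0.08), over 0.1 in 31 of 66 pairs, so the sets paired the arrays only in part. Within 4T1 these set differences went together, at r = 0.22 to 0.51. There r was over 0.1 in 6 of 6 pairs, against 3 of 6 in 4TO7 and 2 of 6 in 67NR. With the set taken as a replicate block inside each line, miR-706 (adjusted p = 0.000655) and miR-705 (0.0448) kept their TGF-beta calls in 4T1. Under that block 67 probes passed for TGF-beta in 67NR, and miR-706 (-0.083, adjusted p = 0.0458) and miR-882 (0.079, 0.0195) passed over all lines. The adjusted p of the F test was 0.0543 for miR-705, in place of 0.0486, and 0.00853 for miR-715, in place of 0.116, with its 4T1 difference known beforehand.

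With 1 array left out, the probes called ranged over 246 to 263 for 4T1 against 4TO7, 326 to 332 for 4T1 against 67NR, 291 to 306 for 4TO7 against 67NR, 38 to 73 in the F test, 91 to 142 for TGF-beta in 4T1, 57 to 74 in 4TO7, 26 to 70 in 67NR and 136 to 169 over all lines. Rigid and compliant arrays stood apart for 10 to 25 probes in 4T1, 21 to 44 in 4TO7 and 35 to 55 in 67NR, with fewer arrays to overlap. A group left with 1 array was assumed to vary like the others. Signal over background limits miR-882, which was below detection on 8 of 24 arrays.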
